A study of Mus musculus with 12 samples.

Results

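Genes of glucose uptake and glycolysis were followed across Lewis lung carcinoma tissue from 4 groups of mice. The set named 10 genes, which were Slc2a1, Hk2, Gpi1, Pfkl, Pfkp, Pfkfb3, Pgk1, Pgam1, Ldha and Pdk1, matched to the arrays by gene symbol. Of these, 9 of the 10 were measured among 19937 genes, each by 1 probe set whose annotation names that gene alone, while Gpi1, glucose-6-phosphate isomerase, had no such probe set and was not analysed here. Probe sequences were not used here, so cross-hybridisation with near-identical copies of these genes was not checked.

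The tissue came from lungs of female C57BL/6 mice, and the carcinoma is a mouse tumour that grows when transplanted. RNA of 12 samples was hybridised to 1 Affymetrix mouse gene array each, in 4 groups of 3. The groups were hosts labelled RelA/p65 deficient and exposed to smoke, RelA/p65 deficient hosts exposed to air, wild type hosts exposed to smoke, and wild type hosts exposed to air, called below deficient smoke, deficient air, wild type smoke and wild type air. RelA/p65 forms part of NF-kB, a transcription factor of inflammation. The series title speaks of myeloid cells, but the labels do not name the cells that lack RelA, the promoter that drives the deletion, the age of the mice, or the kind, dose and duration of smoke. Whether replicates were separate animals is not stated either, and p-values therefore measure the spread between these samples alone, part or all of which may be technical.

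Glycolysis turns glucose into pyruvate. Glucose enters through transporters such as GLUT1, is phosphorylated by hexokinase and committed by phosphofructokinase, and the lower steps yield ATP before lactate dehydrogenase reduces pyruvate to lactate. Growing tumour cells often run this pathway at a high rate, and several of its genes are known targets of the hypoxia-inducible factor HIF-1. PFKFB3 is not an enzyme of the main path: it makes and degrades fructose-2,6-bisphosphate, the activator of phosphofructokinase.

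Levels below are log2 expression on an RMA scale, on which 1 unit is a 2-fold change, and differences are log2 differences ± SE from limma with p-values adjusted by Benjamini-Hochberg over all genes. A difference was called when its adjusted p was under 0.05. Levels of different genes come from different probes and were not set against each other. Array medians over all probe sets lay between 6.78 and 6.88, and arrays of a group correlated across genes with r from 0.990 to 0.998. Medians over the tested genes differed by group. They were 7.44 to 7.47 in deficient smoke, 7.46 to 7.51 in deficient air, 7.26 to 7.36 in wild type smoke and 7.40 to 7.41 in wild type air. Rela itself was not lower in the arrays labelled deficient: its difference was 0.23 ± 0.07 under smoke (adjusted p = 0.00873) and 0.20 ± 0.07 in air (adjusted p = 0.0285), so "deficient" below is the label. Markers of normal lung were present in all groups. The mean of 12 alveolar epithelial markers lay between 11.72 and 11.86 in deficient smoke, 11.77 and 11.82 in deficient air, 8.57 and 8.77 in wild type smoke, and 10.83 and 11.04 in wild type air. In bulk tissue, fewer cells of a type and less RNA per cell cannot be told apart. Within deficient smoke, replicate 1 had the highest level of 8 of the 8 measured genes other than Pfkfb3 and the lowest of Pfkfb3. Within deficient air, replicate 1 was likewise highest for 8 of 8, and within wild type air replicate 1 was highest for 7 of 8. The mean of 11 mitotic genes in deficient smoke was also highest in replicate 1, at 8.89, with a lowest value of 8.31 in that group.

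Slc2a1 encodes GLUT1, the glucose transporter of the plasma membrane. Its levels were 10.26, 9.91 and 10.01 in deficient smoke, 10.54, 10.39 and 10.12 in deficient air, 11.65, 11.79 and 11.79 in wild type smoke, and 10.91, 10.81 and 10.66 in wild type air. All wild type smoke arrays stood above all wild type air arrays, which stood above all deficient arrays, and the deficient groups overlapped each other. With smoke Slc2a1 rose by 0.95 ± 0.11 in wild type hosts (1.93-fold, adjusted p = 3.38e-05). Deficient smoke lay below wild type smoke by a difference of -1.68 ± 0.11 (3.20-fold, adjusted p = 4.21e-08).

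Hk2, the hexokinase that traps glucose inside the cell, followed the same order. Its levels were 9.79, 9.37 and 9.49 in deficient smoke, 9.63, 9.42 and 9.33 in deficient air, 10.67, 10.57 and 10.56 in wild type smoke, and 10.25, 10.05 and 10.01 in wild type air. Wild type smoke and wild type air did not overlap each other or the deficient arrays, while the deficient groups overlapped. In wild type hosts smoke exceeded air by 0.50 ± 0.11 (adjusted p = 0.00456), and the deficient minus wild type difference was -1.05 ± 0.11 under smoke and -0.64 ± 0.11 in air.

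Pfkl and Pfkp encode the liver-type and platelet-type subunits of phosphofructokinase, the committed step. Pfkl measured 9.998, 9.77 and 9.93 in deficient smoke, 10.15, 9.91 and 9.89 in deficient air, 11.16, 11.07 and 11.03 in wild type smoke, and 10.67, 10.60 and 10.53 in wild type air. Pfkp measured 9.65, 9.47 and 9.45 in deficient smoke, 9.78, 9.66 and 9.56 in deficient air, 10.37, 10.30 and 10.32 in wild type smoke, and 9.93, 9.59 and 9.66 in wild type air. The subunits parted in air: Pfkl was lower in all deficient air arrays than in all wild type air arrays, whereas the Pfkp values of these groups overlapped. The deficient minus wild type difference in air was -0.62 ± 0.09 for Pfkl (adjusted p = 6.81e-05) and -0.06 ± 0.09 for Pfkp (adjusted p = 0.690, 95% interval -0.26 to 0.14). Under smoke both were lower in deficient than in wild type hosts, Pfkl by 1.19 ± 0.09 and Pfkp by 0.81 ± 0.09. A test of whether the subunits differ from each other was not run.

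Pgk1 encodes phosphoglycerate kinase, the first ATP-yielding step, and Pgam1 the phosphoglycerate mutase that follows it. Pgk1 levels were 11.70, 11.31 and 11.40 in deficient smoke, 11.70, 11.50 and 11.48 in deficient air, 12.40, 12.60 and 12.57 in wild type smoke, and 12.22, 12.14 and 12.01 in wild type air. Pgam1 levels were 10.79, 10.38 and 10.55 in deficient smoke, 10.60, 10.41 and 10.46 in deficient air, 11.47, 11.46 and 11.55 in wild type smoke, and 11.15, 11.07 and 11.06 in wild type air. For each gene the wild type groups stood apart from each other and above the deficient groups, which overlapped. With smoke they rose in wild type hosts by 0.40 ± 0.10 (Pgk1, adjusted p = 0.0124) and 0.40 ± 0.09 (Pgam1, adjusted p = 0.00641). The Pgk1 call was lost without wild type air replicate 3, where the difference was 0.34 (adjusted p = 0.0597), and its adjusted p was as low as 0.00119 in other settings.

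Ldha encodes the lactate dehydrogenase subunit A, and Pdk1 a kinase that switches off pyruvate dehydrogenase. Ldha measured 12.64, 12.36 and 12.51 in deficient smoke, 12.65, 12.52 and 12.50 in deficient air, 13.25, 13.29 and 13.30 in wild type smoke, and 13.002, 12.93 and 12.89 in wild type air. Pdk1 measured 8.97, 8.86 and 8.71 in deficient smoke, 9.11, 9.01 and 8.93 in deficient air, 10.15, 10.21 and 10.01 in wild type smoke, and 9.45, 9.47 and 9.41 in wild type air. Again the wild type groups were apart and above the overlapping deficient groups. The change of Ldha with smoke in wild type hosts was 0.34 ± 0.08 (adjusted p = 0.00511), the smallest called among these genes, and that of Pdk1 was 0.68 ± 0.08 (adjusted p = 2.59e-05).

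Pfkfb3 ran in the opposite direction. Its levels were 9.30, 9.46 and 9.38 in deficient smoke, 9.77, 9.70 and 9.70 in deficient air, 8.28, 8.22 and 8.29 in wild type smoke, and 8.25, 8.05 and 8.21 in wild type air. Every deficient array stood above every wild type array, deficient air stood above deficient smoke, and the wild type groups overlapped. The deficient minus wild type difference was 1.12 ± 0.07 under smoke (2.17-fold, adjusted p = 1.46e-08) and 1.55 ± 0.07 in air (2.93-fold, adjusted p = 1.01e-08).

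**Figure D1:**
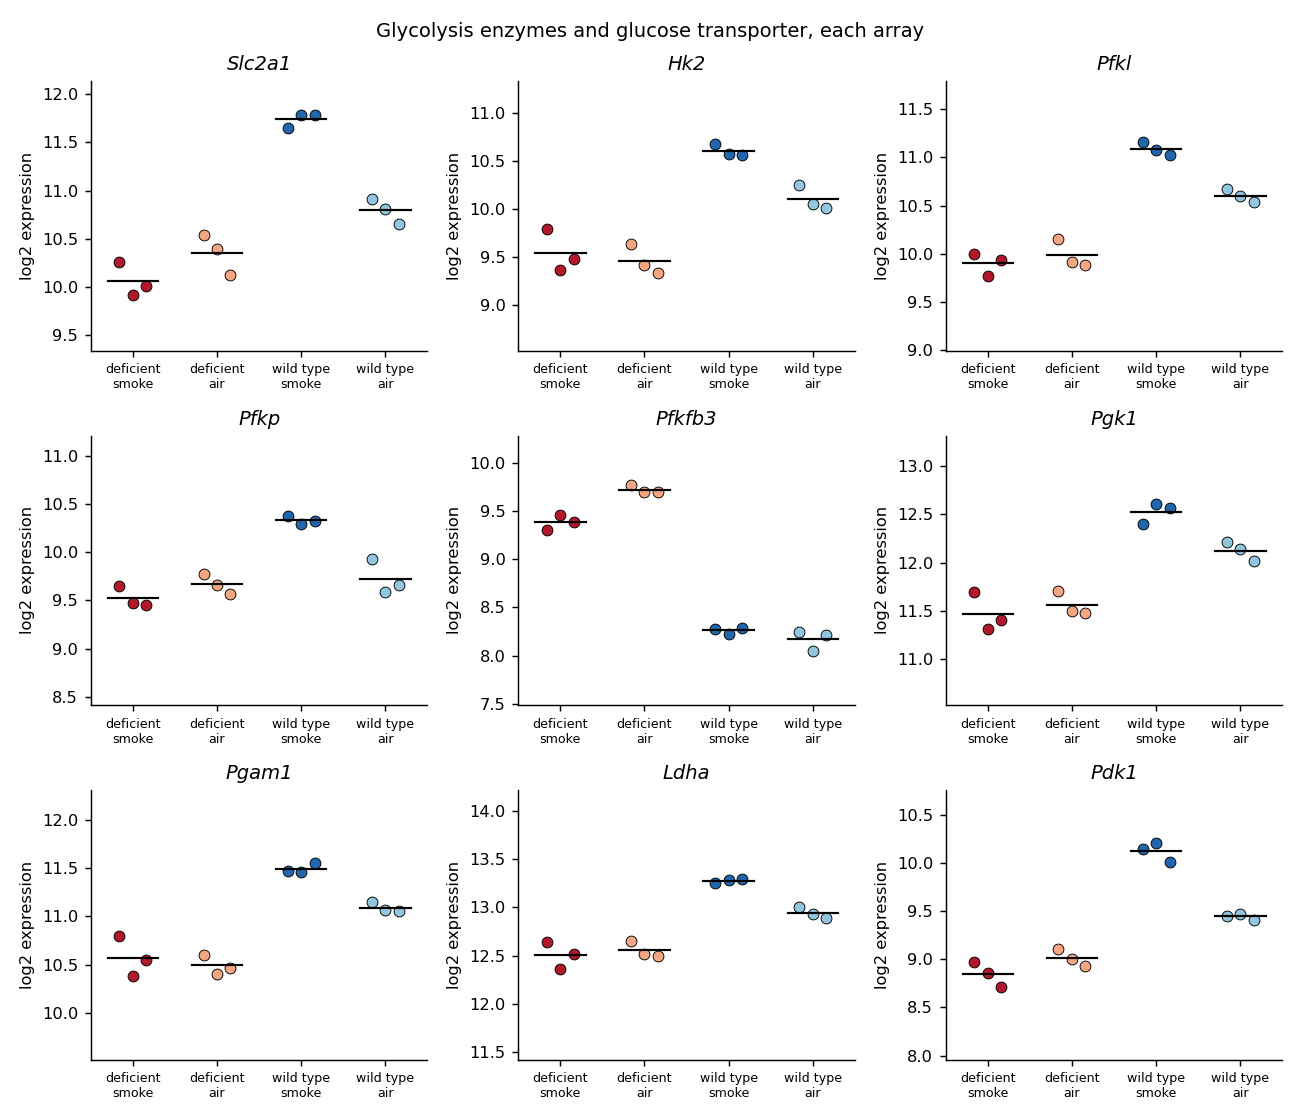
Log2 expression (vertical axis) of the 9 measured genes, 1 panel each, with 1 point per array and a line at the group mean (n = 3), groups in the order deficient smoke, deficient air, wild type smoke and wild type air. In 8 panels wild type smoke is highest, and in the Pfkfb3 panel every deficient array lies above every wild type array.

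The sequences upstream of these genes show where the letters of the hypoxia response element core lie. RefSeq entries (GRCm38.p6) of 250 bases before to 50 after a start matched 10 of 10 genes, with 13 starts. These do not cover every start: the annotated Ldha gene begins at 46842274, before its first entry. Upstream and downstream below give the order among the entries alone. The letters ACGTG or GCGTG, searched on both strands, occurred in 11 of the 13 entries and in 9 of the 10 genes, all but Gpi1, against 43.8% of 32851 promoter entries and 46.7% of 27025 genes. Singly, ACGTG occurred in 19.6% and GCGTG in 32.4% of all entries, and overlapping matches on opposite strands were counted separately. A consensus for NF-kB was found in 0 of the 13 entries, against 4.51% of all. The promoters below are those of the transporter, an enzyme each of the lower and the lactate step, and the pyruvate dehydrogenase kinase. Among the entries not printed, those of Gpi1 and of the downstream Pdk1 start held neither ACGTG nor GCGTG. Pfkfb3 is given at both starts that have an entry, so that the gene that ran the other way can be read beside the rest. Capitals mark ACGTG or GCGTG as read on either strand (CACGT or CACGC where the match is on the other strand), and each sequence runs 5′ to 3′ on the gene's strand.
Slc2a1, chr4:119108495-119108794 (+ strand): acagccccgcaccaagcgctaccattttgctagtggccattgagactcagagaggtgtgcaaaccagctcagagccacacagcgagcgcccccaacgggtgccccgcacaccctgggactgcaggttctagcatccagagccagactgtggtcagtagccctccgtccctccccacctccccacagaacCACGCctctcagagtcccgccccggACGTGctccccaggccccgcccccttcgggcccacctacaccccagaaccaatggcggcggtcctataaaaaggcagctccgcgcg
Pgk1, chrX:106186850-106187149 (+ strand): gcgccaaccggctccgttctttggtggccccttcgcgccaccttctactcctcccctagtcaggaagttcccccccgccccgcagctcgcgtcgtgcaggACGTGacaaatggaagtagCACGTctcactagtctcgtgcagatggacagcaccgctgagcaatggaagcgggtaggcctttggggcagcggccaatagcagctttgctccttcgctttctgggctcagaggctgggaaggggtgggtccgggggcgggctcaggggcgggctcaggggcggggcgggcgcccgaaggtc
Ldha, upstream start, chr7:46845554-46845853 (+ strand): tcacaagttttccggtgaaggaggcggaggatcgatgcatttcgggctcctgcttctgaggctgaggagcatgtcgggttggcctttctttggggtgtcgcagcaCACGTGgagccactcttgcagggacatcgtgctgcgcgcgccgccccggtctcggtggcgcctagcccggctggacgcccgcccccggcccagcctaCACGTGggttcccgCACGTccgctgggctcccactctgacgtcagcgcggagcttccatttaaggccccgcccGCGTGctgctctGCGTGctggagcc
Pdk1, upstream start, chr2:71872974-71873273 (+ strand): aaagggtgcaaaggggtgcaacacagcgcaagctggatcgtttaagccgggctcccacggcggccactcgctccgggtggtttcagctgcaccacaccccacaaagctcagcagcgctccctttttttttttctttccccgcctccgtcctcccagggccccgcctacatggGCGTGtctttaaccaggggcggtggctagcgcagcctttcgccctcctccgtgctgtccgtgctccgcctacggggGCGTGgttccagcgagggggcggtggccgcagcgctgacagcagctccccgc
Pfkfb3, upstream start, chr2:11553880-11554179 (- strand): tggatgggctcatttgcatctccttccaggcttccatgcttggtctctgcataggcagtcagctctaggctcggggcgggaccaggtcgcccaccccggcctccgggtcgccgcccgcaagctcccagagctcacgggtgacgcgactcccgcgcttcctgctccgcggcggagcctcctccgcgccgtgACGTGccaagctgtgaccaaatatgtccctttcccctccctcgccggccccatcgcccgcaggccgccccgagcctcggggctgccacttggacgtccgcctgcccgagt
Pfkfb3, downstream start, chr2:11502041-11502340 (- strand): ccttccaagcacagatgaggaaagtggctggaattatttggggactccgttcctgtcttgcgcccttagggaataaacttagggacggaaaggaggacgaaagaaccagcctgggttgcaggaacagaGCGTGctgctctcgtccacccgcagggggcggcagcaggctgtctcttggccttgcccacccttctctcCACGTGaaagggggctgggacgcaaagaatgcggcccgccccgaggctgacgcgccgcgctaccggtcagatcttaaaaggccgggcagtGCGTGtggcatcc
The letters were found beside the listed starts of Pfkfb3 as well as beside starts of the genes that moved the other way. A match is only a description of these letters, and binding was not measured here.

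With smoke in wild type hosts 8 of the 9 measured genes rose and 0 fell. All genes but Pfkfb3 rose, by 0.34 (Ldha) to 0.95 (Slc2a1). Over all genes tested 29.0% were called, 15.0% higher and 14.0% lower. The median difference was 0.49 over the 9 genes and 0.08 over all genes. The groups did not overlap for 8 of the 9, all higher, against 36.9% of all genes (20.8% higher). Pfkfb3 differed by 0.10 ± 0.07 (adjusted p = 0.303, 95% interval -0.05 to 0.24). That gene was called with the arrays centred on the median of the genes, a setting chosen after seeing the data, at 0.18 (adjusted p = 0.0487, against 0.0487 to 0.716 over all its settings).

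With smoke in deficient hosts 1 of the 9 genes was called, Pfkfb3, which fell by 0.34 ± 0.07 (1.26-fold, adjusted p = 0.0193), and all 3 deficient smoke arrays lay below all 3 deficient air arrays. Among all genes 2.41% were called, 0.692% higher and 1.72% lower. The other differences ran between -0.29 ± 0.11 (Slc2a1, adjusted p = 0.339, 95% interval -0.54 to -0.04) and 0.09 ± 0.11 (Hk2, adjusted p = 0.956, 95% interval -0.15 to 0.33). The median of the 9 genes was -0.09, against -0.00 over all genes. The groups did not overlap for 1 of the 9, lower, against 22.7% of all genes (13.7% lower). The Pfkfb3 call was lost without deficient smoke replicate 1 or 3 or deficient air replicate 1, 2 or 3, with differences of -0.35 to -0.30 and adjusted p-values of 0.0715 to 0.102.

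Between genotypes in air, deficient hosts had 7 of the 9 genes lower and 1, Pfkfb3, higher. The negative differences called ran from -0.39 ± 0.08 (Ldha, adjusted p = 0.00106) to -0.64 ± 0.11 (Hk2, adjusted p = 3.80e-04). Slc2a1 stood at -0.44 ± 0.11 (adjusted p = 0.00740), Pdk1 at -0.43 ± 0.08, Pgk1 at -0.57 ± 0.10 and Pgam1 at -0.60 ± 0.09. Over all genes 38.5% were called, 20.5% higher and 18.0% lower. The median was -0.44 over the 9 genes and -0.03 over all genes, and the groups did not overlap for 8 of the 9 (1 higher, 7 lower), against 51.9% of all genes (25.6% higher, 26.3% lower). By size of difference Pfkfb3 ranked 145 among the 19937 genes.

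Under smoke the genotypes differed in all 9 measured genes, with 8 lower and Pfkfb3 higher in deficient hosts. This comparison called 59.6% of all genes, 22.7% higher and 37.0% lower. The median was -1.05 over the 9 genes and -0.14 over all genes, and the median of all genes shifted to -0.28 with arrays centred on the median of the genes, under which all 9 kept their direction and call. After Slc2a1 the largest negative differences were Pdk1 at -1.28 ± 0.08 (2.42-fold, adjusted p = 1.71e-08) and Pfkl at -1.19 ± 0.09. The smallest was Ldha at -0.77 ± 0.08 (1.71-fold, adjusted p = 1.60e-06). The groups did not overlap for 9 of 9 (1 higher, 8 lower), against 61.3% of all genes (23.6% higher, 37.6% lower).

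**Figure D2:**
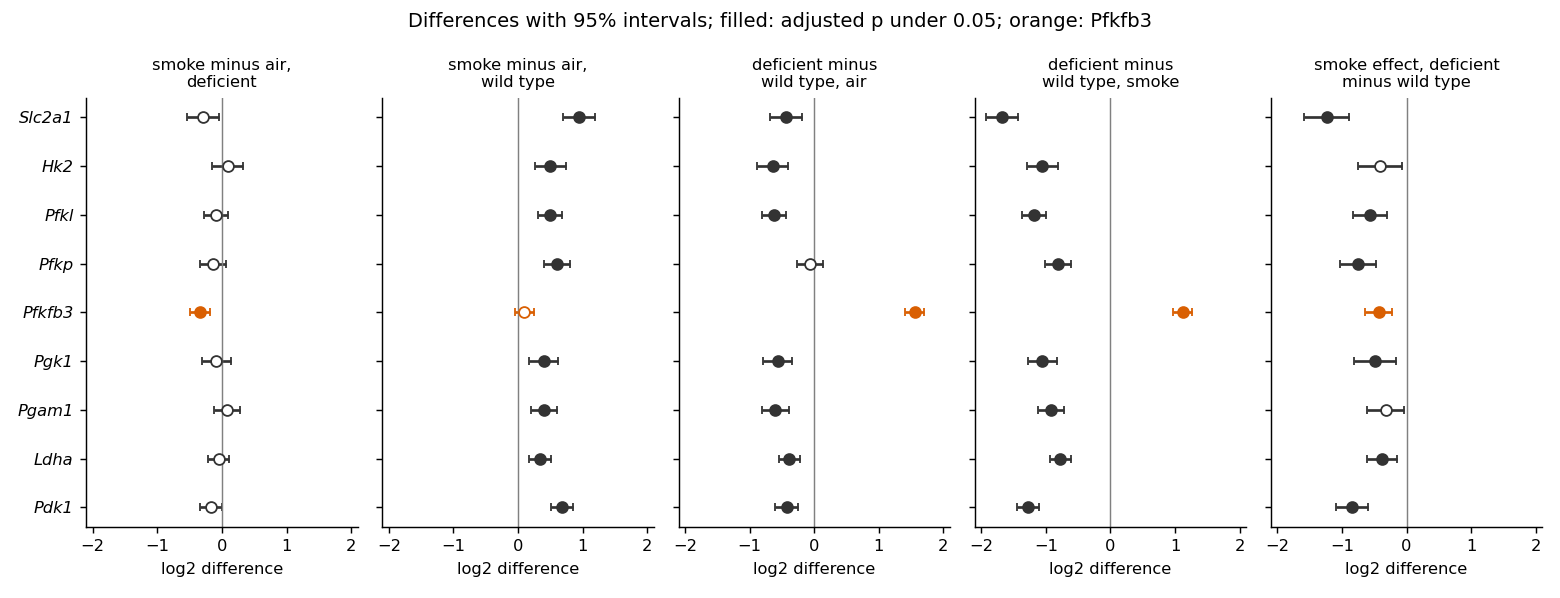
Log2 differences (horizontal axis) of the 9 measured genes as points with 95% intervals from limma, filled where the adjusted p was under 0.05, in 5 panels: smoke minus air in deficient and in wild type hosts, deficient minus wild type in air and under smoke, and the interaction. Pfkfb3 (orange) is the only gene right of 0 in the deficient minus wild type panels, at 1.55 and 1.12, and Slc2a1 reaches -1.68 under smoke.

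The smoke difference itself depended on genotype for 7 of the 9 genes. In limma's interaction, the deficient smoke effect minus the wild type smoke effect, all 7 were negative, while 14.6% of all genes were called, 8.89% higher and 5.70% lower. Slc2a1 stood at -1.24 ± 0.16 (adjusted p = 1.19e-04), Pdk1 at -0.85 ± 0.11 (adjusted p = 1.36e-04), Pfkp at -0.75 ± 0.13 (adjusted p = 0.00132) and Pfkl at -0.57 ± 0.12 (adjusted p = 0.00548). Pgk1 at -0.49 ± 0.15 (adjusted p = 0.0426) and Ldha at -0.39 ± 0.11 (adjusted p = 0.0285) were nearer the limit. Hk2 and Pgam1 were not called, at -0.41 ± 0.16 (adjusted p = 0.106, 95% interval -0.75 to -0.07) and -0.32 ± 0.13 (adjusted p = 0.138, 95% interval -0.61 to -0.03). For Pfkfb3 the interaction was -0.43 ± 0.10 (adjusted p = 0.00802), which rests on its smoke difference of -0.34 in deficient and 0.10 in wild type hosts. Its sign is shared with the other genes although its genotype differences are not. The median was -0.49 over the 9 genes and -0.08 over all genes.

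Some of these calls changed when 1 array was left out. Without deficient smoke replicate 1, the array with the highest mitotic mean of its group, Hk2 at -0.53 (adjusted p = 0.0219) and Pgam1 at -0.43 (adjusted p = 0.0224) were called as well. The Pgk1 call was lost without deficient smoke replicate 2 or 3, deficient air replicate 1, 2 or 3, wild type smoke replicate 2 or 3, or wild type air replicate 2 or 3, that is any 1 of 9 of the 12 arrays, with differences of -0.53 to -0.41, against -0.49 as reported, and adjusted p-values up to 0.116. The Ldha call was lost without deficient smoke replicate 2 or 3, deficient air replicate 1, wild type smoke replicate 2 or 3, or wild type air replicate 2 or 3, with differences of -0.39 to -0.31, against -0.39 as reported, and adjusted p-values up to 0.0804.

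Pfkfb3 was set beside the other genes by centring each gene on its mean over the 12 arrays. Pfkfb3 lay between 0.42 and 0.58 in deficient smoke, 0.81 and 0.88 in deficient air, -0.66 and -0.60 in wild type smoke, and -0.84 and -0.64 in wild type air. The other 8 genes together lay between -0.82 and -0.12 in deficient smoke, -0.61 and -0.03 in deficient air, 0.43 and 1.05 in wild type smoke, and -0.23 and 0.32 in wild type air. In each of the 4 groups no array of Pfkfb3 entered the range of the others.

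**Figure D3:**
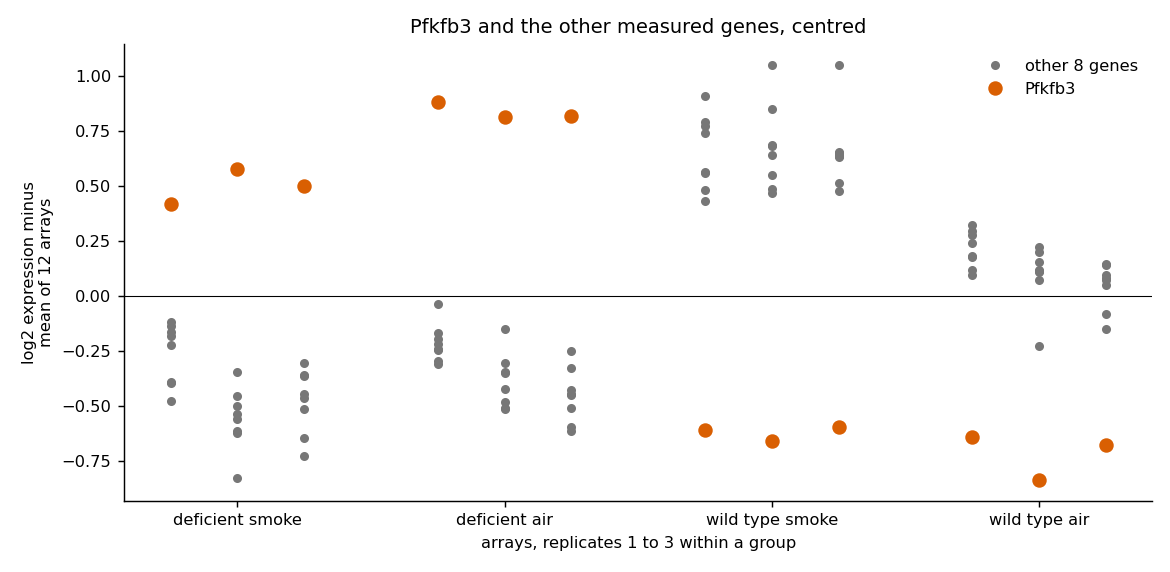
Centred log2 level (vertical axis, gene mean over the 12 arrays at 0) of Pfkfb3, drawn as larger points, and of the other 8 genes, 1 point per gene and array, arrays along the horizontal axis by group. Pfkfb3 lies at 0.42 or above in the deficient arrays, where the other genes lie at -0.03 or below.

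The root mean square difference of centred values over the 12 arrays measured how alike the profiles were, as a description with no test. The closest pair was Hk2 and Pgam1 at 0.0836, and the nearest gene of the set was Pgam1 for Pgk1 at 0.0867, Hk2 for Pfkl at 0.0899, Pgam1 for Ldha at 0.112, Pfkl for Pdk1 at 0.112, Ldha for Pfkp at 0.144 and Pdk1 for Slc2a1 at 0.181. Pfkfb3 was the farthest gene for each of the other 8, at 0.911 (Pfkp) to 1.24 (Slc2a1). Among 14527 genes with a mean log2 level of at least 6, the 10 nearest to Pfkfb3 were Xdh (0.0966), Coro1a (0.106), Cd52 (0.115), Klhl6 (0.119), Fgr (0.120), Lilra5 (0.122), Lcp1 (0.128), Mmrn2 (0.133), Ptprc (0.135) and Myo1g (0.137). Ptprc encodes the leukocyte antigen CD45, Coro1a, Lcp1 and Myo1g encode actin-associated proteins of blood cells, Cd52 a lymphocyte surface protein and Fgr a kinase of myeloid cells. Xdh is xanthine dehydrogenase and Mmrn2 a protein of the endothelial matrix. The mean level of Ptprc was 10.41 in deficient smoke, 10.87 in deficient air, 9.12 in wild type smoke and 9.14 in wild type air.

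Other genes of glycolysis moved in both directions. The counts of listed genes below are to be read beside the shares of all genes given above for each comparison. Of 27 listed isoforms, transporters and regulators 22 were measured, and smoke in wild type hosts called 7 higher and 7 lower, with a median of -0.02. Ldhb, the subunit that favours lactate oxidation, fell by 1.96 ± 0.09 (adjusted p = 1.24e-09), and Pfkfb2, a relative of Pfkfb3, fell by 0.92 ± 0.10. The leukocyte hexokinase Hk3 rose by 0.75 ± 0.11. Bpgm, which makes the 2,3-bisphosphoglycerate of red cells, fell by 0.64 ± 0.08.

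With smoke in deficient hosts Bpgm rose by 0.95 ± 0.08 and the muscle enolase Eno3 fell by 0.54 ± 0.08, and no other of the 22 was called. Between genotypes the list had 8 higher and 8 lower under smoke (median -0.17), against 22.7% and 37.0% of all genes. In air it had 11 higher and 4 lower (median 0.16), against 20.5% and 18.0% of all genes. The lower counts among the 22 were near the shares of all genes. Under smoke Ldhb was higher in deficient than in wild type hosts by 2.47 ± 0.09 (5.55-fold, adjusted p = 3.98e-11), Bpgm by 2.15 ± 0.08 and Pfkfb2 by 1.67 ± 0.10. Triosephosphate isomerase, Tpi1, was lower in deficient hosts by 1.11 ± 0.12. In air Ldhb was higher in deficient hosts by 0.85 ± 0.09 and the brain-type aldolase Aldoc by 0.71 ± 0.07. The muscle-type phosphofructokinase Pfkm was lower there by 0.73 ± 0.07 and Tpi1 by 0.69 ± 0.12. Mean Pfkm was also lower under smoke, at 9.46 in deficient and 10.05 in wild type hosts. The interaction called 3 higher and 3 lower, with Ldhb at 1.62 ± 0.12, Bpgm at 1.59 ± 0.12, Pfkfb2 at 1.00 ± 0.15 and Hk3 at -0.82 ± 0.16. Pfkfb3 and Pfkfb2 were thus both higher in deficient hosts under smoke. In air the mean level of Pfkfb2 was 9.52 in deficient and 8.85 in wild type hosts. Pfkfb4, another relative, averaged 8.58 in deficient smoke, 8.64 in deficient air, 7.83 in wild type smoke and 7.98 in wild type air. For Pfkfb2 and Pfkfb4, as for Pfkfb3, every deficient array stood above every wild type array. The direction between genotypes was therefore not particular to Pfkfb3, and Pfkfb1 was not measured. Red cell markers were higher in deficient smoke as Bpgm was. The mean of 3 erythroid markers lay between 8.50 and 8.61 in deficient smoke, 7.61 and 7.74 in deficient air, 6.95 and 7.19 in wild type smoke, and 7.06 and 7.28 in wild type air, with Alas2, the first enzyme of red cell haem synthesis, higher by 3.25 ± 0.09 in deficient hosts under smoke, and their part in the result was not tested.

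Genes for the fate of pyruvate and lactate, 15 of 16 measured, were called 1 higher and 6 lower with smoke in wild type hosts (median -0.15). The lactate exporter Slc16a3 rose by 0.92 ± 0.11, while the monocarboxylate transporter Slc16a7 fell by 1.29 ± 0.09, pyruvate carboxylase, Pcx, by 1.19 ± 0.08 and the pyruvate dehydrogenase kinase Pdk2 by 0.71 ± 0.12. In deficient hosts limma called 0 of the 15 genes with smoke. Deficient against wild type hosts gave 7 higher and 4 lower under smoke, against 22.7% and 37.0% of all genes. In air 6 were higher and 2 lower, against 20.5% and 18.0% of all genes. Unlike Pdk1, the kinases Pdk4 and Pdk2 were higher in deficient hosts, by 1.83 ± 0.09 and 1.66 ± 0.12 under smoke and by 1.21 ± 0.09 and 1.08 ± 0.12 in air. Slc16a7 was higher in deficient hosts by 2.54 ± 0.09 and Pcx by 1.79 ± 0.08 under smoke. In air Slc16a7 was higher by 1.30 ± 0.09, whereas the transporter Slc16a1 was lower in deficient hosts by 1.11 ± 0.11. Under smoke the mean level of Slc16a1 was likewise lower, at 10.26 in deficient and 11.12 in wild type hosts. That of Slc16a3 was 8.69 in deficient smoke and 9.80 in wild type smoke. Of the interaction calls 4 were higher and 1 was lower, which was Slc16a3 at -1.15 ± 0.16 (adjusted p = 1.90e-04).

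Hypoxia-induced genes outside glycolysis, 20 of 20 measured, showed 13 higher and 2 lower with smoke in wild type hosts (median 0.46). The vasodilator peptide gene Adm rose by 1.25 ± 0.13, the prolyl hydroxylase Egln3 by 1.18 ± 0.21 and Ankrd37 by 1.07 ± 0.11, while the angiogenic factor Vegfa fell by 1.27 ± 0.07. With smoke in deficient hosts 2 were higher, Lox at 0.53 ± 0.11 and Hilpda at 0.45 ± 0.10, and 2 lower, Adm at -0.56 ± 0.13 and the collagen prolyl hydroxylase subunit P4ha1 at -0.33 ± 0.06. Deficient hosts had 2 higher and 14 lower under smoke (median -0.78), with Egln3 at -2.72 ± 0.21, Adm at -2.61 ± 0.13, Ndrg1 at -1.84 ± 0.11 and Vegfa at 1.88 ± 0.07. In air 3 were higher and 9 lower (median -0.18), with Egln3 at -1.19 ± 0.21, Adm at -0.80 ± 0.13, the lysyl hydroxylase Plod2 at -0.65 ± 0.08 and Vegfa at 0.62 ± 0.07. The interaction called 2 higher and 12 lower (median -0.45), with Adm at -1.81 ± 0.18, Egln3 at -1.53 ± 0.30, Ndrg1 at -1.26 ± 0.15 and Vegfa at 1.27 ± 0.10.

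Of 4 hypoxia factor genes, Hif1a encodes the oxygen-regulated subunit of HIF-1. It was lower in deficient than in wild type hosts by 0.62 ± 0.09 under smoke and by 0.47 ± 0.09 in air. Epas1, the HIF-2 subunit abundant in lung endothelium, was higher in deficient hosts by 3.84 ± 0.11 under smoke (14.4-fold, adjusted p = 9.65e-12) and by 1.16 ± 0.11 in air, and fell by 2.56 ± 0.11 with smoke in wild type hosts, with an interaction of 2.69 ± 0.16. Arnt, the partner subunit, differed by 0.19 ± 0.06 between genotypes under smoke and by -0.20 ± 0.06 with smoke in wild type hosts.

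**Figure D4:**
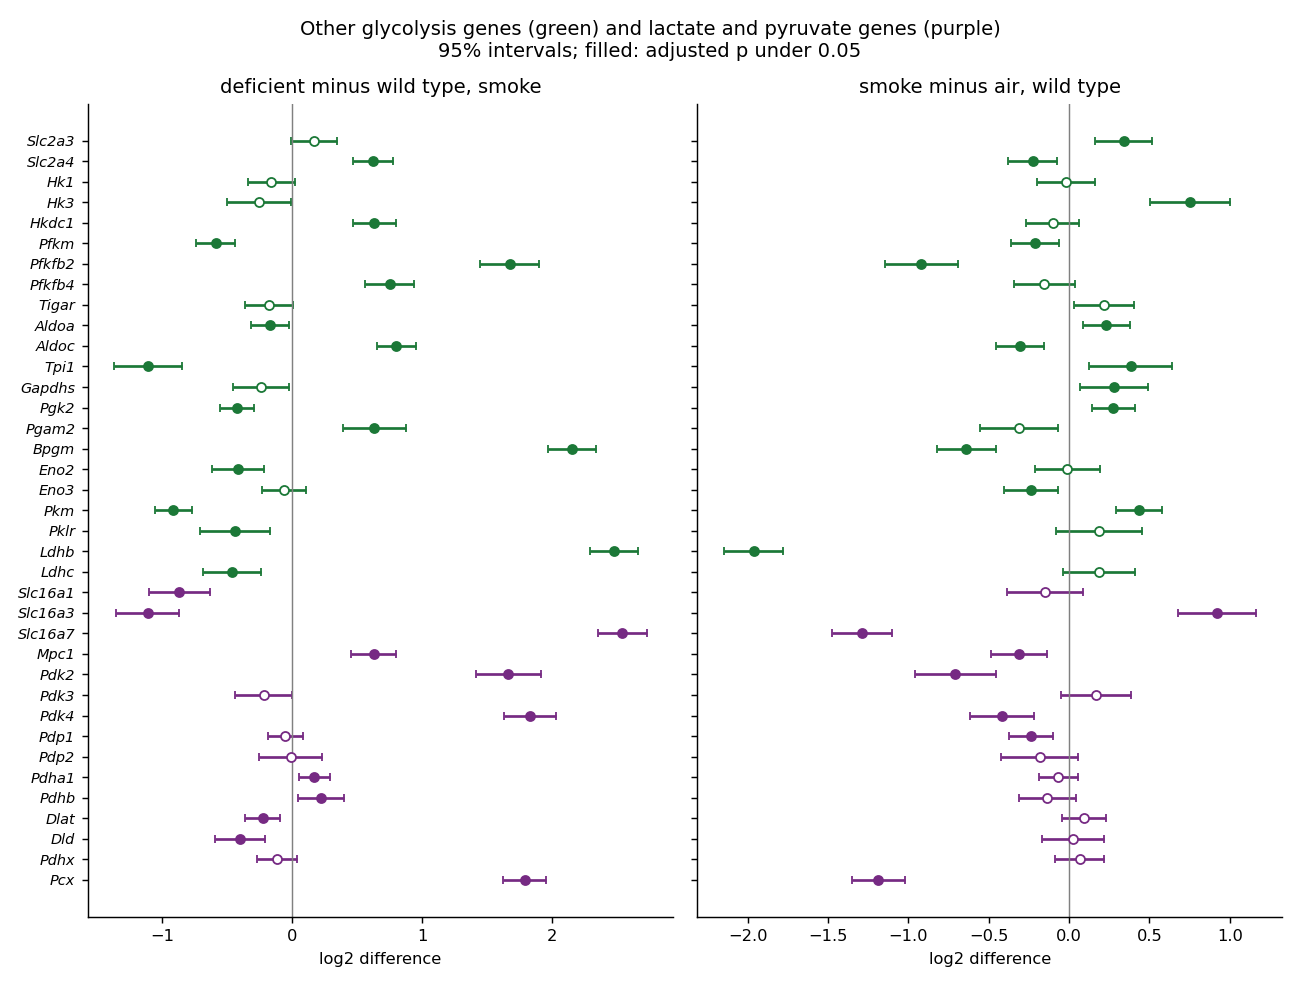
Log2 differences (horizontal axis) with 95% intervals from limma for the 22 other glycolysis genes (green) and the 15 lactate and pyruvate genes (purple), for deficient minus wild type under smoke (left) and smoke minus air in wild type hosts (right), filled where the adjusted p was under 0.05. Genes lie on both sides of 0, with Ldhb at 2.47 on the left panel and -1.96 on the right.

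Markers of cell types differed along the same comparisons. The mean of 11 mitotic genes ran between 8.31 and 8.89 in deficient smoke, 8.45 and 8.67 in deficient air, 9.97 and 10.08 in wild type smoke, and 9.60 and 9.75 in wild type air. Like the genes other than Pfkfb3, they were highest in wild type smoke. All 11 were lower in deficient hosts under smoke (median -1.46) and in air (median -1.11), and 5 of 11 rose with smoke in wild type hosts, among them Cdc20 by 0.50 ± 0.10 and Plk1 by 0.46 ± 0.13. The other way ran the 12 alveolar markers given above, all higher in deficient hosts under smoke (median 3.06) and in air (median 0.85) and all lower with smoke in wild type hosts (median -2.03). The 11 endothelial markers averaged 10.98 to 11.16 in deficient smoke, 11.07 to 11.10 in deficient air, 8.50 to 8.64 in wild type smoke and 9.98 to 10.19 in wild type air, and all 11 were higher in deficient hosts in both exposures. Airway markers, 7 in number, averaged 10.63 to 10.73 in deficient smoke, 10.60 to 10.64 in deficient air, 6.77 to 6.94 in wild type smoke and 9.77 to 10.05 in wild type air. The club cell genes Cyp2f2 and Scgb1a1 had differences of -5.35 ± 0.08 and -4.46 ± 0.11 with smoke in wild type hosts.

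Most leukocyte markers were higher in deficient hosts in air, as Pfkfb3 was: 10 of 10 of T and NK cells, 9 of 11 of macrophages and monocytes and 8 of 11 of neutrophils. The mean of 10 T and NK cell markers was 7.63 to 7.75 in deficient smoke, 8.07 to 8.17 in deficient air, 5.97 to 6.26 in wild type smoke and 6.58 to 6.74 in wild type air. That order of the deficient groups was the one of Pfkfb3, and 5 of the 10 fell with smoke in deficient hosts, with the granzyme gene Gzma at -1.02 ± 0.11 and Nkg7 at -0.76 ± 0.08. Macrophage and monocyte markers, 11 measured, averaged 9.42 to 9.57 in deficient smoke, 9.57 to 9.65 in deficient air, 9.78 to 9.94 in wild type smoke and 8.81 to 9.16 in wild type air. Of these, 10 rose with smoke in wild type hosts, and between genotypes under smoke 2 were higher and 6 lower in deficient hosts. Neutrophil markers, also 11, averaged 7.07 to 7.14 in deficient smoke, 6.83 to 6.92 in deficient air, 6.53 to 6.58 in wild type smoke and 6.13 to 6.31 in wild type air. No marker is at 0 on this scale, and the part of any of these cell types in the results on the glycolysis genes was not tested.

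**Figure D5:**
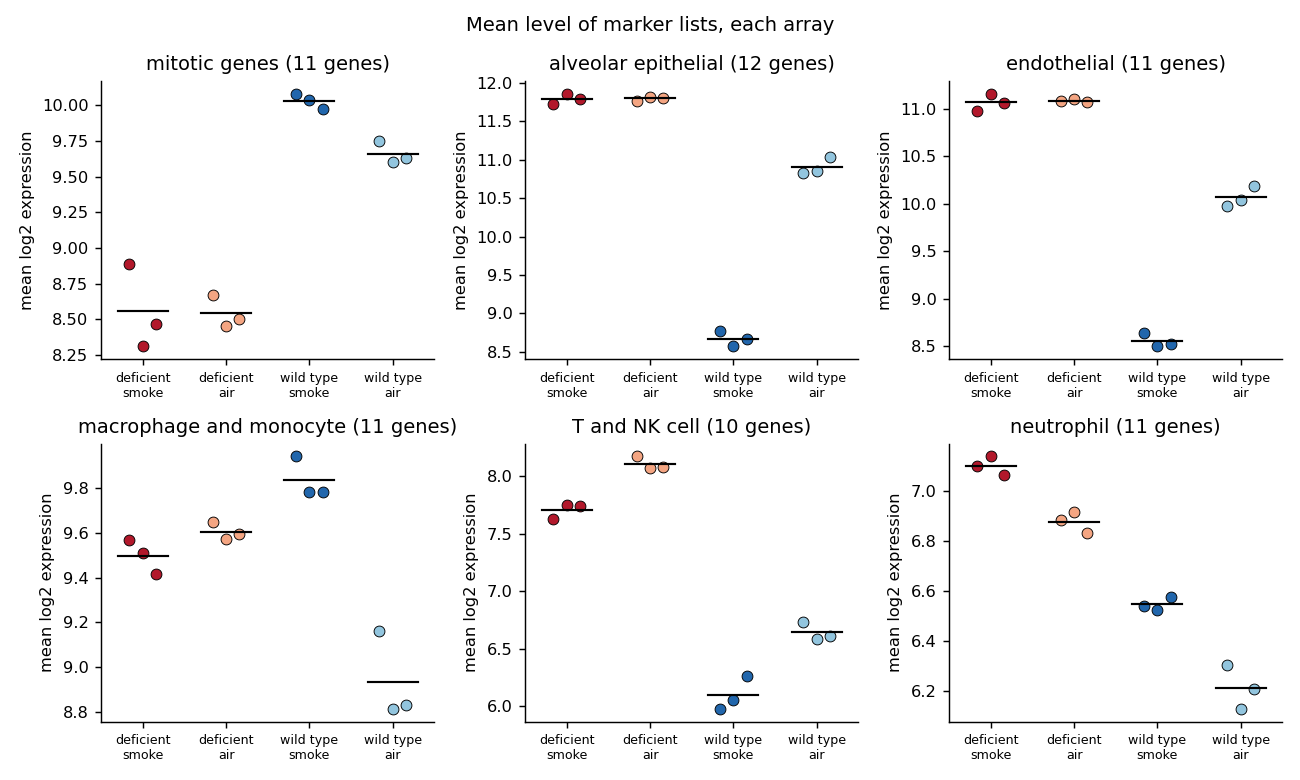
Mean log2 level (vertical axis, not from 0) of 6 marker lists, 1 point per array with a line at the group mean, groups in the order deficient smoke, deficient air, wild type smoke and wild type air. Mitotic genes are highest in wild type smoke, at 9.97 to 10.08, where alveolar markers are lowest, at 8.57 to 8.77.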

How the data were processed

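Total RNA was measured in 12 samples. Per the submitters' processing notes, the authors made the deposited log2 values with RMA in Affymetrix Expression Console, and they were used as given. The annotation named 1 gene for 21640 of 34760 probe sets, several for 1321 and none was listed for 11799. Probe sets naming 1 gene were kept, with the highest mean per gene, which gave 19937 genes. Limma 3.58.1 in R 4.3.3 fitted 1 mean per group to the 12 arrays, with 2-sided moderated tests adjusted by Benjamini-Hochberg. On simulated data for smoke against air in wild type hosts (19937 genes), 98 of 100 genes shifted by 1, 74 of 100 shifted by 0.5 and 7 of 19737 unshifted genes were called. The number of arrays limits the precision. The 10 genes, the 6 pathway lists and the 12 marker lists (alveolar, airway, endothelial, macrophage, neutrophil, T and NK, B and plasma, erythroid, fibroblast, muscle, adipocyte, mitotic) were chosen with earlier results of these data known, and so give no independent support.

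Named were all measured genes of the set, up to 4 called genes with the largest difference per pathway list and comparison, up to 2 per marker list, Rela, and the 10 profiles nearest to Pfkfb3. Pfkfb4 was named as well, as a relative of Pfkfb3. Mean levels of Pfkfb2, Pfkm, Slc16a1 and Slc16a3 were also given in further comparisons, outside this rule. Alternatives were the mean over probe sets, quantile normalization, centring on the array median, a filter on dim genes (3 or more arrays at a log2 of 6 or more), an intensity trend, array weights, the replicate block, the 6 arrays compared alone, each array left out, and, chosen after seeing the data, centring on the median of the genes. Python 3.11.15 and matplotlib 3.10.9 were used.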

Additional observations from a re-analysis of the deposited data

Results flagged for a closer look

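For 7 genes the effect of smoke differed between genotypes by the interaction test, with adjusted p-values given above. The deficient smoke effect minus the wild type smoke effect was -1.24 for Slc2a1, -0.85 for Pdk1, -0.75 for Pfkp, -0.57 for Pfkl, -0.49 for Pgk1, -0.43 for Pfkfb3 and -0.39 for Ldha. For 6 of them the wild type smoke effect was called and the deficient one was not, and for Pfkfb3 the deficient effect was called and the wild type one was not.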

How the results depend on the processing

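Over the single-gene results, 901 of 936 values kept their direction and side of the limit, 23 lost the call, 6 gained it and 6 turned sign, the last all uncalled. With each array left out in turn, the counts of genes called were 7 to 8 higher for smoke in wild type hosts, 0 to 1 lower for smoke in deficient hosts and 5 to 9 lower for the interaction. The uncalled differences that turned sign ranged, for smoke in deficient hosts, from -0.13 to 0.000295 (Pfkl), -0.11 to 0.0233 (Ldha), -0.0331 to 0.18 (Hk2) and -0.0284 to 0.18 (Pgam1), and, between genotypes in air, from -0.13 to 0.0432 (Pfkp). For the interaction, quantile normalization left 6 calls, with Pgk1 at -0.46 (adjusted p = 0.0712). Centring on the median of the genes added Hk2 (adjusted p = 0.0431) and Pgam1 (adjusted p = 0.0449). Same-numbered arrays of different groups deviated together with correlations of -0.36 to 0.37 and over 0.1 in 7 of 18 pairs, so the numbers are not taken as pairs, and the replicate block gave 8 lower in the interaction, adding Hk2 at -0.41 (adjusted p = 0.0172), and changed no other call. Over all genes, smoke in wild type hosts called 5778, against 9852 with centring on the median of the genes, 10211 with array weights, 3454 with the 6 arrays alone, 3695 without wild type air replicate 3 and 8824 without wild type smoke replicate 1. Smoke in deficient hosts called 481, against 1368 with array weights, 1018 with 6 arrays alone and 261 to 320 without any 1 of its arrays. The interaction called 2909, against 4969 without wild type smoke replicate 1 and 6662 with array weights. The share of calls that were higher was, as reported and then with centring on the median of the genes, 51.8% and 77.1% for smoke in wild type hosts, 53.2% and 39.6% between genotypes in air, 38.0% and 22.9% under smoke and 60.9% and 41.4% for the interaction. The causes were not tested.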

Other observations

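Of 6 gluconeogenesis genes, limma called 0 with smoke in wild type hosts and 1 lower, Fbp2 at -0.74 ± 0.10 (adjusted p = 0.00128), with smoke in deficient hosts. Between genotypes 0 were higher and 2 lower under smoke, G6pc3 at -0.44 ± 0.07 and Pck2 at -0.40 ± 0.07, and 1 was higher (Fbp2 at 0.74 ± 0.10) and 2 were lower (Pck2 at -0.55 ± 0.07, G6pc3 at -0.42 ± 0.07) in air. The Fbp2 interaction was -0.88 ± 0.14 (adjusted p = 7.87e-04). Of 6 pentose phosphate genes measured among 7 listed, 1 was higher and 1 lower between genotypes under smoke, transaldolase, Taldo1, at 0.20 ± 0.06 and Pgls at -0.47 ± 0.08. In air 1 was higher, Taldo1 at 0.42 ± 0.06, and 3 were lower, Pgls at -0.38 ± 0.08, Rpia at -0.24 ± 0.09 and Pgd at -0.20 ± 0.06.

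Among the remaining marker lists, deficient against wild type hosts under smoke gave 4 of 6 B and plasma cell markers higher, 2 of 3 erythroid markers higher, 4 of 9 fibroblast markers higher and 5 lower, 6 of 8 muscle markers higher and 1 lower, and 3 of 5 adipocyte markers higher.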
